A study of Xiphophorus maculatus with 24 samples.

Results

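The genes described here are the Bmal and Clock genes of the platyfish Xiphophorus maculatus in skin, 5 genes of the 24209 in the count table. They were taken by identifier: arntl1 (ENSXMAG00000015619), the Ohnolog pair arntl2-Ohnolog1 (ENSXMAG00000001482) and arntl2-Ohnolog2 (ENSXMAG00000008892), and the pair clocka (ENSXMAG00000016928) and clockb (ENSXMAG00000028575). The identifiers fix the members without a measured value, but they were proposed with earlier results of these data known. All 5 passed the filter on low counts.

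Skin was taken for RNA-Seq from Jp 163 A males, in inbred generation 116 by the growth notes of all samples, 1 library a fish, kept under 13 h of light and 11 h of darkness with food in the morning and afternoon. Fish were sampled by the clock, and zeitgeber time (Zt) counts hours since lights on, so that 8 AM was Zt 0.5. The samplings of 8 AM to 8 PM fell in the light and those of 11 PM, 2 AM and 5 AM in the dark. A first collection, from fish of 24 months, held 2 libraries at each of the 8 time points, 3 h apart (16 libraries). A second collection, from fish of 12 months, with libraries of a later year, held 2 libraries at each of 8 AM, 2 PM, 8 PM and 2 AM (8 libraries). Age and library year changed together and cannot be told apart. Only the library names of the second collection carry the number 116, so inbred generation may have differed along with them.

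Libraries held 25736825 to 36066368 counts, and the lowest count of any of the 5 genes in any library was 87 (clocka), so counting error was small beside the daily changes. Levels are given as CPM, the read count normalised to the library's total. They depend on transcript length and were compared within a gene, not between genes. One library stood apart: in 5 PM replicate A of the first collection 36.6% of genes lay below 0.5 times the first collection's median, against at most 8.26% in any other library, and TMM scaling raised it by 0.70 (log2) relative to its CPM. Of the marker genes that could be matched by name, the epidermal krt5, epcam and ppl were detected in every library (summed 17908 to 42889 CPM). The 5 matched skeletal muscle markers summed to 2226 to 12057 CPM over the libraries and to 8710 CPM in 5 PM replicate A, so muscle RNA was present, and its part in the results was not tested. The dermis and scale markers col1a2, sp7 and dcn summed to 369 to 6949 CPM. Of the neural markers, elavl3 was at 0 to 0.378 CPM and stmn2b at 0.0355 to 1.74 CPM. The red blood cell marker alas2 ranged from 11.6 to 236 CPM, and the matched pigment cell markers summed to 5.18 to 23.5 CPM. Names matched 3 of 9 epidermal, 3 of 5 dermis and scale, 5 of 9 skeletal muscle and 2 of 4 neural markers. They matched 1 of 5 red blood cell and 3 of 8 pigment cell markers.

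BMAL proteins, encoded by the arntl genes, pair with CLOCK and bind E-box elements, where the dimer switches on the per, cry and Rev-erb genes. PER and CRY proteins then inhibit the dimer, and REV-ERB and ROR receptors repress or activate Bmal and Clock transcription in mammals, which closes the daily loop. In fish, peripheral tissues such as skin hold clocks that light can set directly, and a genome duplication in the teleost ancestor left many clock genes in more than one copy.

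All 5 genes ran through a wave each day, and their waves were of 2 kinds. arntl1, arntl2-Ohnolog1, clocka and clockb were lowest between 2 AM and 8 AM, rose through the light phase and fell after lights off. arntl2-Ohnolog2 was lowest in the middle of the light phase and high around the start of the night, with a later fitted peak than the other 4 genes. Over all libraries its highest sampled mean was at 8 PM, the same time point as for arntl1, arntl2-Ohnolog1 and clocka. In the edgeR quasi-likelihood test of a 24-h wave over all 24 libraries, all 5 were called at an adjusted p under 0.05, where 15.8% of the 19020 genes tested were called. Their median fitted amplitude was 1.39 (log2), against 0.24 over all genes tested and 0.44 over the called genes.

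arntl1 encodes the BMAL1-type partner of CLOCK. From morning to evening the first collection gave 6.42 and 5.32 CPM at 8 AM, 28.9 and 27.0 CPM at 11 AM, 39.1 and 37.8 CPM at 2 PM, 24.9 and 57.1 CPM at 5 PM, and 54.9 and 50.9 CPM at 8 PM. In the dark it measured 24.0 and 23.04 CPM at 11 PM, 6.82 and 8.46 CPM at 2 AM, and 4.76 and 5.13 CPM at 5 AM. The second collection gave 7.34 and 3.27 CPM at 8 AM, 33.7 and 34.4 CPM at 2 PM, 47.7 and 51.5 CPM at 8 PM, and 4.11 and 4.49 CPM at 2 AM. The morning rise and the evening fall were both steep, and no library of 2 AM, 5 AM or 8 AM overlapped with one of 11 AM to 11 PM. The first collection's mean rose 4.77-fold between 8 AM and 11 AM and fell 2.25-fold and then 3.08-fold in the 2 steps after 8 PM. Over all libraries the mean at 8 PM (51.3 ± 2.95 CPM, SD, n = 4) was 10.4 times that at 5 AM (4.95 ± 0.26 CPM, n = 2). The adjusted p of the wave was 1.0e-09.

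clocka encodes a CLOCK protein, the partner of BMAL. It measured 9.08 and 8.35 CPM at 8 AM of the first collection, 51.7 and 50.3 CPM at 11 AM, 58.3 and 55.2 CPM at 2 PM, 43.6 and 72.4 CPM at 5 PM, and 67.1 and 61.2 CPM at 8 PM. It then measured 30.4 and 28.9 CPM at 11 PM, 9.68 and 13.6 CPM at 2 AM, and 4.08 and 8.23 CPM at 5 AM. From the second collection came 5.94 and 3.09 CPM at 8 AM, 60.5 and 48.7 CPM at 2 PM, 106.9 and 100.5 CPM at 8 PM, and 5.89 and 7.81 CPM at 2 AM. As with arntl1, the libraries of 2 AM, 5 AM and 8 AM were all below those of 11 AM to 11 PM, and at 8 PM both libraries of the second collection were above both of the first. In the first collection the level went from 8.71 ± 0.52 CPM at 8 AM to 51.0 ± 1.04 CPM at 11 AM (SD, n = 2 each), a 5.85-fold step, and then stayed within 51.0 to 64.2 CPM (means) until 8 PM. Its fitted amplitude of 2.12 (log2) ranked 14 among the 19020 genes tested, and the adjusted p was 1.9e-07.

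clockb, the other clock copy, rose more slowly than clocka in the first collection. The first collection gave 20.9 and 22.9 CPM at 8 AM, 31.5 and 34.1 CPM at 11 AM, 41.8 and 46.6 CPM at 2 PM, 43.8 and 114 CPM at 5 PM, and 104 and 85.0 CPM at 8 PM. The dark libraries gave 64.4 and 57.4 CPM at 11 PM, 26.6 and 18.3 CPM at 2 AM, and 14.7 and 20.8 CPM at 5 AM. Fish of the second collection gave 17.8 and 18.7 CPM at 8 AM, 64.8 and 64.0 CPM at 2 PM, 56.9 and 70.0 CPM at 8 PM, and 19.6 and 21.0 CPM at 2 AM. The first collection climbed in steps to 8 PM, while the second was at 64.4 ± 0.54 CPM at 2 PM and 63.4 ± 9.27 CPM at 8 PM (SD, n = 2 each), within the spread. Its range was smaller than that of clocka: in the first collection the highest mean was 5.33 times the lowest for clockb and 10.4 times for clocka. The adjusted p of the wave was 4.6e-09.

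arntl2-Ohnolog1, a copy of the BMAL2-type gene, followed a similar course with a broad plateau in the first collection. In the light it measured there 25.1 and 20.5 CPM at 8 AM, 57.4 and 61.8 CPM at 11 AM, 53.6 and 57.6 CPM at 2 PM, 49.1 and 94.1 CPM at 5 PM, and 65.1 and 61.0 CPM at 8 PM. It measured 56.3 and 51.2 CPM at 11 PM, 21.4 and 28.2 CPM at 2 AM, and 9.82 and 10.7 CPM at 5 AM. The second collection gave 13.7 and 13.8 CPM at 8 AM, 66.2 and 60.7 CPM at 2 PM, 85.4 and 95.6 CPM at 8 PM, and 12.3 and 16.2 CPM at 2 AM. In the first collection the plateau ran from 11 AM to 11 PM, so that in the dark at 11 PM this copy was still near its light-phase level. The second collection had no plateau between 2 PM and 8 PM, where its mean rose 1.43-fold with no overlap of libraries. From 8 PM to 11 PM its mean fell 1.17-fold in the first collection, where that of arntl1 fell 2.25-fold. The adjusted p of the wave was 6.3e-07.

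arntl2-Ohnolog2 moved on another schedule. In the first collection it fell through the morning, from 54.9 and 48.8 CPM at 8 AM to 40.7 and 39.6 CPM at 11 AM and 31.6 and 23.4 CPM at 2 PM. It then measured 57.7 and 90.4 CPM at 5 PM, 163 and 210.1 CPM at 8 PM, 196 and 208 CPM at 11 PM, 149 and 106 CPM at 2 AM, and 86.3 and 68.9 CPM at 5 AM. The second collection gave 119 and 129 CPM at 8 AM, 66.3 and 63.0 CPM at 2 PM, 227 and 251 CPM at 8 PM, and 160.0 and 185 CPM at 2 AM. Its lowest libraries in each collection were those of 2 PM, when arntl1 and clocka were already high. Between 11 AM and 2 PM its mean fell 1.46-fold with no overlap of libraries while that of arntl1 rose 1.37-fold, also with none. The 2 steps from 2 PM to 8 PM raised the mean 2.69-fold and then 2.52-fold, and the night and morning lowered it by 1.46-fold to 1.64-fold in 4 of the 5 steps from 11 PM back to 2 PM and by 1.29-fold in the step from 8 AM to 11 AM. The adjusted p of the wave was 3.9e-06.

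**Figure D1:**
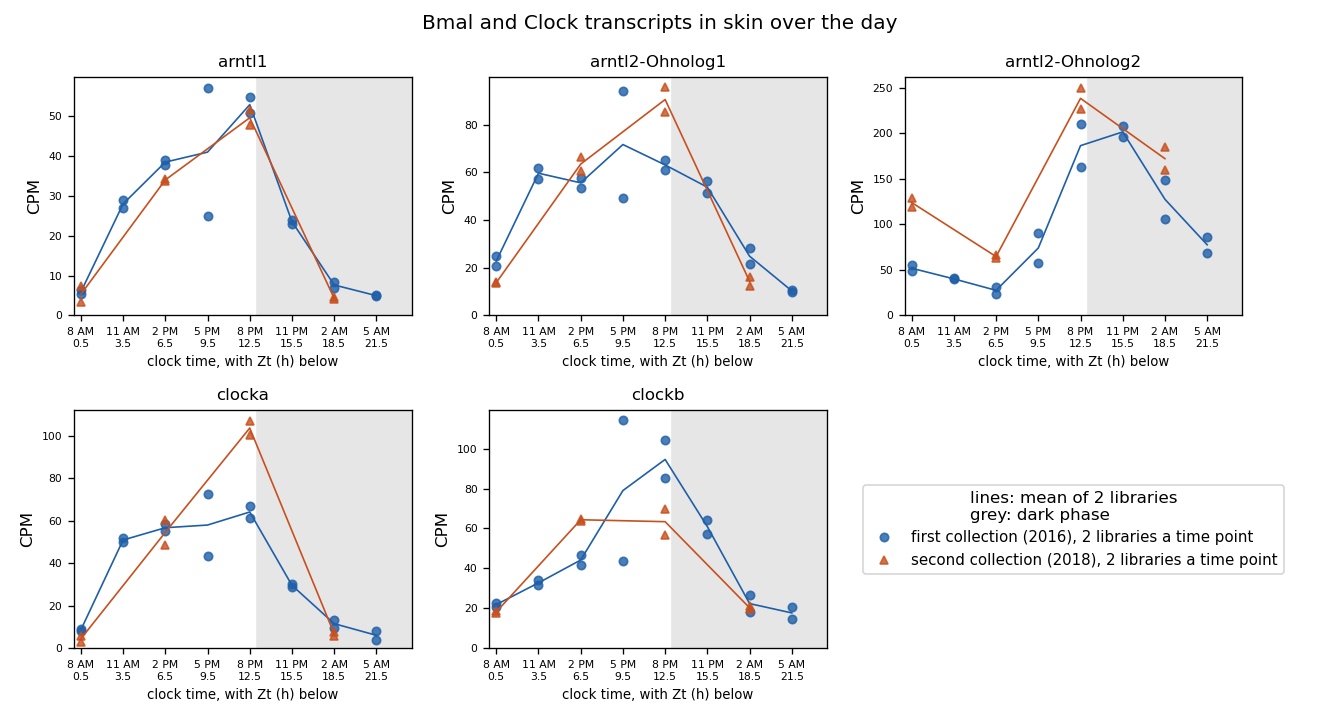
CPM (vertical axis) of the 5 genes against clock time with Zt in hours (horizontal axis), with circles for the 16 libraries of the first collection, triangles for the 8 of the second, lines through the means of 2 libraries and grey for the dark phase. The other 4 panels rise in the light and fall in the dark, and arntl2-Ohnolog2 is lowest at 2 PM and highest at 8 PM and 11 PM.

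The fish of a time point and collection were alike in most cases. The fold between them had a median of 1.08 for arntl1, 1.10 for arntl2-Ohnolog1, 1.14 for arntl2-Ohnolog2, 1.17 for clocka and 1.12 for clockb over the 12 pairs. The pair of 5 PM, which holds the library that stood apart, differed 2.30-fold in arntl1, 1.92-fold in arntl2-Ohnolog1, 1.57-fold in arntl2-Ohnolog2, 1.66-fold in clocka and 2.61-fold in clockb. Other pairs were as far apart in some genes: at 8 AM of the second collection the fish differed 2.25-fold in arntl1 and 1.92-fold in clocka, and the pair of 5 AM differed 2.02-fold in clocka, the widest pair of that gene. With TMM scaling the replicates A and B of 5 PM were at 69.2 and 69.8 CPM for clocka and at 91.6 and 87.1 CPM for arntl2-Ohnolog2, while clockb (69.4 and 110.1 CPM) and arntl1 (39.5 and 55.0 CPM) still differed. Without replicate A all 5 genes were called, with adjusted p from 6.9e-10 (arntl1) to 4.9e-06 (arntl2-Ohnolog2). That fit called 5063 of the 19013 genes tested.

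Each collection alone gave the same calls. In the first collection all 5 genes were called, where 1.56% of genes were, with adjusted p from 2.0e-05 (arntl1) to 0.0042 (arntl2-Ohnolog1). In the second, with 4 time points, all 5 were called, where 37.9% of genes were, with adjusted p from 3.3e-05 (clocka) to 0.020 (arntl2-Ohnolog2). An exact rank test, which asks whether the mean CPM of the 8 time points go up once and down once, called arntl1, clocka and clockb over all 24 libraries and these genes and arntl2-Ohnolog2 in the first collection, each at 0.0099, the smallest p this test can give. The test called 4.57% of expressed genes over all libraries and 4.65% in the first collection. By this exact test arntl2-Ohnolog1 was called in neither (p = 0.036 and 0.052) and arntl2-Ohnolog2 not over all 24 libraries (exact p = 0.036). The rank test had no collection term, and over all libraries its means pooled both collections at 4 of the 8 time points.

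The peak times were taken from a cosine fitted to log2(CPM + 0.5) with TMM scaling. The fitted peak lay at Zt 9.60 ± 0.23 h (SE) for arntl1, 9.57 ± 0.35 h for arntl2-Ohnolog1, 9.63 ± 0.31 h for clocka and 10.3 ± 0.27 h for clockb. For arntl2-Ohnolog2 it lay at Zt 15.7 ± 0.42 h, in the dark. A fitted peak is the centre of the wave, not its highest sample. Over all libraries the highest sampled mean was at 8 PM for arntl1, clocka and arntl2-Ohnolog1, after their fitted peaks. For arntl2-Ohnolog2 it was at 8 PM too, before its fitted peak. In the second collection alone, which did not sample 5 PM or 11 PM, the same genes were also highest at 8 PM. In the first, arntl2-Ohnolog1 was highest at 5 PM and arntl2-Ohnolog2 at 11 PM. The cosine took 93.2% of the variance about the collection means for arntl1, 90.7% for clockb, 88.5% for clocka, 85.7% for arntl2-Ohnolog1 and 80.6% for arntl2-Ohnolog2.

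The fitted peak of arntl2-Ohnolog2 came hours after those of the other genes. arntl2-Ohnolog2 peaked 6.12 ± 0.55 h (SE) after arntl2-Ohnolog1 and 6.10 ± 0.48 h after arntl1, lags many times their SE. The lag behind arntl2-Ohnolog1 was 6.14 ± 0.67 h in the first collection and 6.38 ± 1.10 h in the second. These are lags of fitted waves: in the second collection both copies had their highest sampled mean at 8 PM. arntl1 and clocka, whose products form the dimer, peaked 0.03 ± 0.18 h apart, which is within the error. This near coincidence was an average of the collections: arntl1 peaked 0.38 ± 0.19 h after clocka in the first and 0.57 ± 0.20 h before it in the second. clockb peaked 0.66 ± 0.42 h after clocka over all libraries, 1.51 ± 0.47 h after it in the first collection and 0.72 ± 0.35 h before it in the second. The difference between collections in these lags was not tested.

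**Figure D2:**
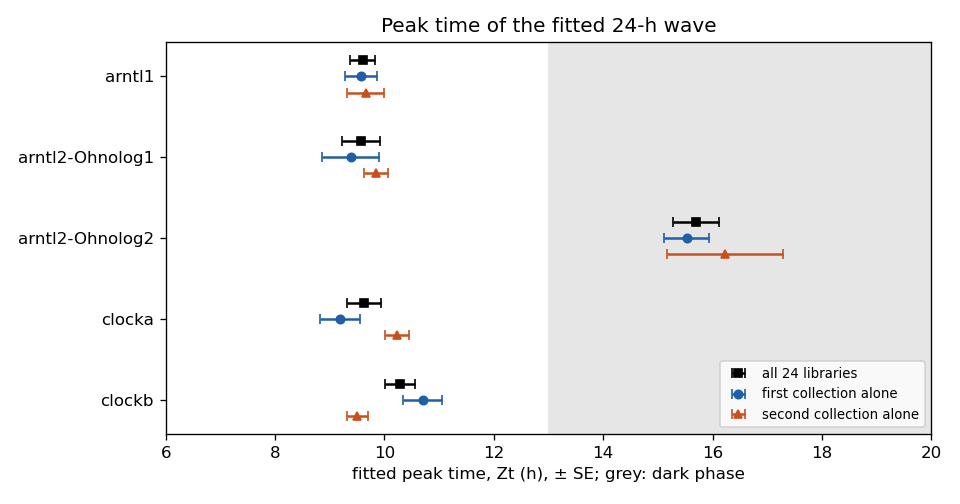
Fitted peak time in Zt hours (horizontal axis) with its SE (bars) for the 5 genes, from all 24 libraries (squares), the first collection alone (circles) and the second alone (triangles), with grey for the dark phase. The other 4 genes lie between Zt 9.18 and 10.7 in every fit, and arntl2-Ohnolog2 lies apart, at Zt 15.7 over all libraries.

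The ratio of the Ohnologs, arntl2-Ohnolog1 over arntl2-Ohnolog2 in CPM, swung through the day. Besides their lag, the copies had fitted amplitudes of 1.37 ± 0.13 and 1.09 ± 0.12 (log2, SE) in the cosine fit. The parts of phase and amplitude in the ratio were not tested. Since transcript lengths were not at hand, only the change of the ratio is read, not whether it lies above or below 1. In the first collection it was 0.457 and 0.420 at 8 AM, 1.41 and 1.56 at 11 AM, 1.69 and 2.46 at 2 PM, and 0.851 and 1.04 at 5 PM. It then measured 0.399 and 0.290 at 8 PM, 0.288 and 0.247 at 11 PM, 0.144 and 0.265 at 2 AM, and 0.114 and 0.156 at 5 AM. In the second collection it was 0.114 and 0.107 at 8 AM, 0.998 and 0.963 at 2 PM, 0.377 and 0.382 at 8 PM, and 0.0770 and 0.0879 at 2 AM. Both collections had their highest ratio at 2 PM, and the second was lower than the first at 8 AM, 2 PM and 2 AM, with no overlap, and inside the first's range at 8 PM. The highest mean was 15.4 times the lowest in the first collection and 11.9 times in the second. These ranges cover unlike times: the first was lowest at 5 AM, which the second did not sample. At the shared times the mean of the first went from 2.08 at 2 PM to 0.205 at 2 AM. That of the second went from 0.981 to 0.0825. The amplitude of a 24-h wave in the log2 ratio was 1.78, and a two-sided permutation test of the 24 libraries within collections gave p = 1e-05, the smallest 100000 resamples can give (2e-05 adjusted over the 2 ratios tested). The first collection alone gave the same p.

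The ratio of the clock copies, clocka over clockb, changed less. Libraries of the first collection gave 0.434 and 0.364 at 8 AM, 1.64 and 1.48 at 11 AM, 1.39 and 1.18 at 2 PM, 0.997 and 0.634 at 5 PM, and 0.645 and 0.720 at 8 PM. In the dark it was 0.472 and 0.503 at 11 PM, 0.364 and 0.743 at 2 AM, and 0.278 and 0.395 at 5 AM. The second collection gave 0.333 and 0.165 at 8 AM, 0.934 and 0.762 at 2 PM, 1.88 and 1.44 at 8 PM, and 0.300 and 0.372 at 2 AM. The first collection was highest at 11 AM, which the second did not sample, and declined through the afternoon. Of the shared time points, the first was highest at 2 PM (mean 1.29) and the second at 8 PM (mean 1.66). At 2 PM both libraries of the second lay below both of the first, and at 8 PM both lay above. The wave in this ratio had an amplitude of 0.91 (log2) with p = 0.00092 in the two-sided permutation test (also 0.00092 adjusted over the 2 ratios) and p = 0.0041 in the first collection alone, where its high point was fitted at Zt 6.96 against Zt 8.77 over all libraries.

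**Figure D3:**
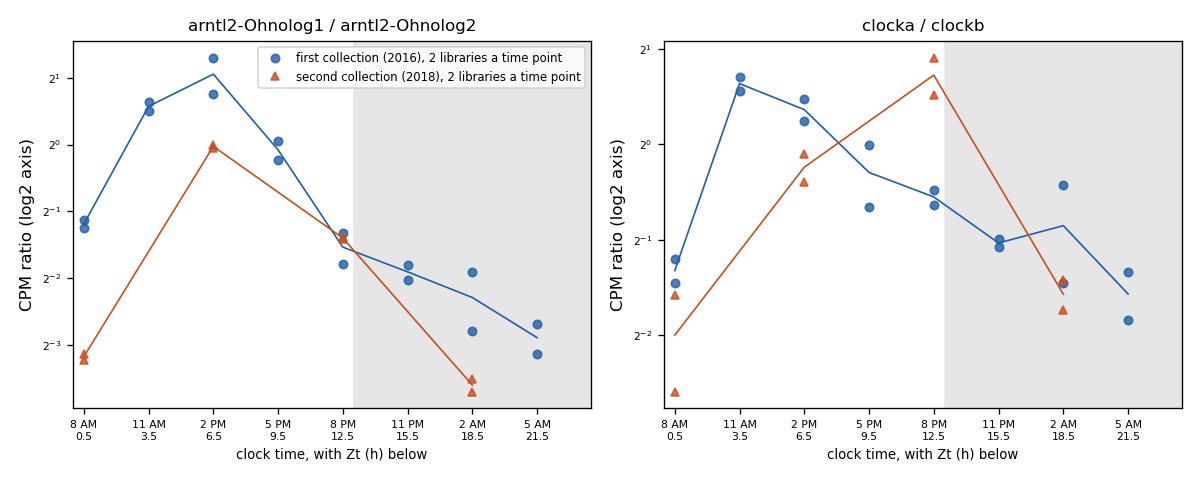
Ratio of CPM (vertical axis, log2 scale) of arntl2-Ohnolog1 to arntl2-Ohnolog2 (left) and of clocka to clockb (right) against clock time with Zt in hours, with circles for the first collection, triangles for the second, lines through the means and grey for the dark phase. The Ohnolog ratio is highest at 2 PM in both collections. The clock ratio is highest at 11 AM in the first and at 8 PM in the second, which was not sampled at 11 AM.

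The summed CPM gives the total Bmal and the total Clock signal, weighted by transcript length. The sum of the 3 arntl genes was lowest around dawn in the first collection, at 86.4 and 74.7 CPM at 8 AM, and highest at 283 and 322 CPM at 8 PM. Between them it measured 127 and 128 CPM at 11 AM, 124 and 119 CPM at 2 PM and 132 and 242 CPM at 5 PM, and after dusk 276 and 282 CPM at 11 PM, 177 and 143 CPM at 2 AM and 100.9 and 84.8 CPM at 5 AM. The sum thus did not rise between 11 AM and 2 PM, when arntl1 went up and arntl2-Ohnolog2 down. In the second collection it was 140.3 and 146 CPM at 8 AM, 166 and 158 CPM at 2 PM, 360 and 398 CPM at 8 PM, and 176 and 205 CPM at 2 AM. The highest mean was 3.76 times the lowest in the first collection and 2.65 times in the second, a smaller range than the 10.7 and 11.5 times of arntl1 alone. The shares of the genes in this sum depend on transcript length, so only their change over the day is read. That of arntl2-Ohnolog2 went from 22.6 ± 4.04% at 2 PM of the first collection (SD, n = 2) to 83.4 ± 3.03% at 5 AM. In the second collection its share was 39.9 ± 0.04% at 2 PM and 90.3 ± 0.55% at 2 AM, while arntl1 went from 21.0 ± 1.06% to 2.26 ± 0.10%.

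The sum of the clock copies had a wider range than the arntl sum. It was 30.0 and 31.2 CPM at 8 AM of the first collection, 83.3 and 84.3 CPM at 11 AM, 100.2 and 101.8 CPM at 2 PM, 87.4 and 187 CPM at 5 PM, and 171 and 146 CPM at 8 PM. It then fell to 94.8 and 86.4 CPM at 11 PM, 36.3 and 31.9 CPM at 2 AM and 18.7 and 29.1 CPM at 5 AM. The sum of the second collection was 23.7 and 21.8 CPM at 8 AM, 125 and 113 CPM at 2 PM, 164 and 170.4 CPM at 8 PM, and 25.5 and 28.8 CPM at 2 AM. The highest mean was 6.64 times the lowest (at 5 AM) in the first collection and 7.34 times in the second, which lacked 5 AM. The arntl sum over the clock sum therefore changed through the day, from 1.20 ± 0.05 at 2 PM to 4.69 ± 0.28 at 2 AM in the first collection and from 1.36 ± 0.05 to 7.02 ± 0.16 in the second (SD, n = 2 each). Its mean was lowest at 2 PM and highest at 2 AM in both collections, and the libraries of these time points did not overlap. No test was made on the sums.

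**Figure D4:**
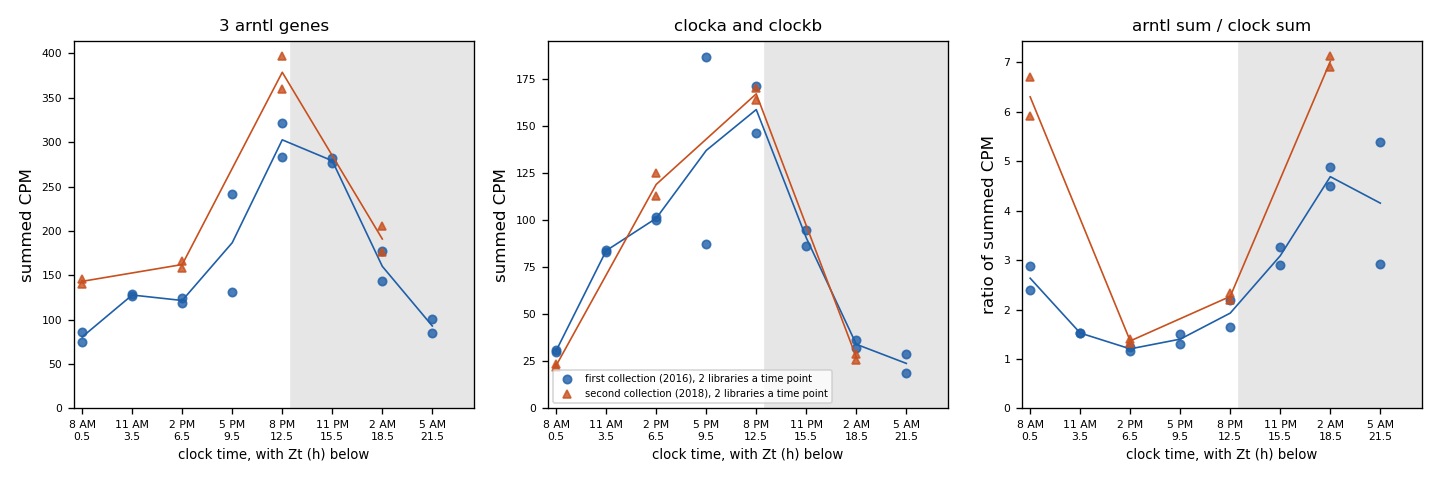
Summed CPM of the 3 arntl genes (left), summed CPM of clocka and clockb (middle) and the ratio of these sums (right) against clock time with Zt in hours, with circles for the first collection, triangles for the second, lines through the means and grey for the dark phase. Both sums are highest at 8 PM, and their ratio is lowest at 2 PM and highest at 2 AM.

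The end of the light phase (8 PM) was compared with its start (8 AM), which both collections sampled with 4 libraries a side in all. All 5 genes were called as higher at dusk. Of the 18771 genes tested, 5.18% were called as higher and 7.05% as lower (12.2% in either direction). In each of the 5 genes the 4 dusk libraries lay above the 4 dawn libraries. The share of all genes that did so is not given. The largest difference among the 5 was in clocka, from 3.09 to 9.08 CPM at dawn and from 61.2 to 106.9 CPM at dusk, a log2 change of 3.60 ± 0.38 (SE, edgeR adjusted p = 0.0017). arntl1 went from 3.27 to 7.34 CPM at dawn to 47.7 to 54.9 CPM at dusk, a log2 change of 3.13 ± 0.22 (edgeR adjusted p = 0.00036). The log2 change was 2.01 ± 0.26 for arntl2-Ohnolog1 (adjusted p = 0.0042), 1.87 ± 0.13 for clockb (adjusted p = 0.00032) and 1.31 ± 0.18 for arntl2-Ohnolog2 (adjusted p = 0.0054). Marker levels also moved between these times: the dermis and scale markers summed to 769 to 1003 CPM at dawn and 2642 to 3974 CPM at dusk in the first collection, and to 3296 to 4593 CPM and 5328 to 6949 CPM in the second. The skeletal muscle markers went the other way, from 6685 to 12057 CPM at dawn to 2226 to 5612 CPM at dusk in the first collection and from 4142 to 4885 CPM to 2860 to 2912 CPM in the second. Their part in the dusk changes was not tested. Without the collection term the change of arntl2-Ohnolog2 was 1.20 and was not called (edgeR adjusted p = 0.093).

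The collections differed in the level of 1 gene of the 5. arntl2-Ohnolog2 was higher in the second collection at each of the 4 shared time points, by 0.84 ± 0.14 (log2, SE), with an edgeR adjusted p of 0.00026. Such a call was common: 45.6% of the 18935 genes tested were called, 23.4% as higher in the second collection and 22.2% as lower. Its libraries of the 2 collections did not overlap at any shared time point, but with only 2 a side. The share of all genes that did the same is not given. The means were 51.9 ± 4.28 CPM against 124 ± 6.79 CPM at 8 AM and 27.5 ± 5.78 CPM against 64.6 ± 2.38 CPM at 2 PM (SD, n = 2 each). Marker sums differed between the collections too. Over the 4 shared time points the dermis and scale markers summed to 455 to 3974 CPM in the first collection (median 1556 CPM) and to 3296 to 6949 CPM in the second (median 5060.0 CPM), with no overlap at any of them. The epidermal markers had medians of 30003 CPM and 37857 CPM, and the skeletal muscle markers of 6148 CPM and 3612 CPM. The part of these shifts in the level of arntl2-Ohnolog2 was not tested. The log2 difference was -0.28 ± 0.15 for arntl1 (adjusted p = 0.13), -0.23 ± 0.22 for clocka (0.41), -0.18 ± 0.18 for arntl2-Ohnolog1 (0.45) and -0.09 ± 0.14 for clockb (0.61). For arntl1, not called with all libraries in, the outcome depended on 1 library. Without 8 AM replicate A of the second collection its difference was -0.41 and was called, with an edgeR adjusted p of 0.019.

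A difference in the wave itself between collections was tested at the shared time points. None of the 5 genes was called, where 0.0939% of the 19169 genes tested were (18 genes), although 3770 genes had an unadjusted p under 0.05. arntl2-Ohnolog1 (edgeR adjusted p = 0.054) and clocka (0.066) were close to the threshold, and arntl1 (0.52), arntl2-Ohnolog2 (0.42) and clockb (0.41) were not. At these time points, with 8 libraries a collection, the fitted amplitude of clocka was 1.76 ± 0.10 (log2, SE) in the first collection and 2.66 ± 0.15 in the second, and that of arntl2-Ohnolog1 was 0.89 ± 0.09 and 1.72 ± 0.10. Whether these 2 genes were called turned on settings. Without either 2 AM library of the first collection the edgeR adjusted p was 0.012 and 0.010 for arntl2-Ohnolog1 and 0.023 and 0.014 for clocka. Those fits called many more genes, 986 without replicate C and 1628 without replicate D, of 19476 tested. With other single libraries left out the adjusted p reached 0.196 for arntl2-Ohnolog1 and 0.207 for clocka. DESeq2 called both (7.4e-06 and 0.00017). DESeq2 called 1558 genes in all.

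The genes most alike in pattern were ranked by Pearson's r over the 24 libraries, on log2 levels with each collection's mean removed, among 19020 genes. These values are descriptions, since the libraries share the time of day. arntl1 and clocka were the closest pair of the 5 (r = 0.98), arntl2-Ohnolog1 followed both (r = 0.96 and 0.97), and clockb was close to each of them (r = 0.88 to 0.92). arntl2-Ohnolog2 had r between -0.04 and 0.20 with the other members. Outside the 5, si:ch211-193k19.1 was the nearest gene to arntl1 (r = 0.90), arntl2-Ohnolog1 (0.92) and clocka (0.93). The next were tbl1x (0.89), a part of nuclear receptor corepressor complexes, and cry1ba (0.85), a cryptochrome, for arntl1. For arntl2-Ohnolog1 they were dnajc15 (0.90), a mitochondrial co-chaperone, and tle2a (0.89), a Groucho-type corepressor. For clocka they were dnajc15 (0.90) and alg6 (0.89), a glycosyltransferase of N-glycan assembly.

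clockb had another set of neighbours: spsb3a (r = 0.91), nfil3 (0.89), a repressor at D-box elements, and sc5d (0.86), a late enzyme of cholesterol synthesis. For arntl2-Ohnolog2 the nearest gene was nr1d4b (r = 0.90), a Rev-erb type nuclear receptor, followed by si:dkey-76k16.5 (0.84) and ENSXMAG00000016662 (0.78). nr1d4b measured 4.44 to 308 CPM (median 69.9 CPM) and had its fitted peak at Zt 16.2, close to the Zt 15.7 of arntl2-Ohnolog2. Both had their highest mean at 11 PM in the first collection. After dusk they parted. In the second collection nr1d4b measured 82.2 and 111 CPM at 8 PM and 291 and 308 CPM at 2 AM. In the first it measured 150 and 169 CPM at 8 PM and 294 and 139 CPM at 2 AM, with overlap. arntl2-Ohnolog2 had a higher mean at 8 PM than at 2 AM in both collections.

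Of 32 other clock genes, 28 were called in the same test of a 24-h wave, where 15.8% of all genes were. Without 5 PM replicate A 30 were called, where 5063 of all 19013 genes tested were. The first collection alone called 25, where 1.56% of all genes were called, and the second alone 28, where 37.9% were. The counts that follow are from the test over all 24 libraries. Of the 28, 9 had their fitted peak between Zt 6 and 18 and 19 between Zt 18 and 6, limits set with the values known. Over all 3000 genes called, 53.5% had their peak between Zt 6 and 18. Among the 32, 12 of 13 repressor genes (per, cry, ciart and bhlhe40 types) were called, 10 with a peak between Zt 18 and 6. That window also holds the early light hours, where for example per2-Ohnolog2 (Zt 5.71) and cry1ab-Ohnolog2 (Zt 4.50) had their fitted peaks. The 6 with the largest amplitude included dbpb (2.87, peak at Zt 20.8), a D-box activator, per1b (2.67, Zt 21.8) and ciarta (2.47, Zt 22.0), whose products inhibit the BMAL and CLOCK dimer. dbpb, per1b and ciarta peaked near the hours when arntl1, arntl2-Ohnolog1, clocka and clockb were lowest. Not all repressors ran against arntl1: over the 13, r with arntl1 ran from -0.97 (per1b) to 0.85 (cry1ba). It was also positive for per2-Ohnolog1, per2-Ohnolog2 and cry1ab-Ohnolog2, and negative for the rest. The other 3 were nfil3-5 (2.57, Zt 7.64), nr1d4b (2.51, Zt 16.2) and rorcb (2.15, Zt 6.82), a ROR-type activator receptor that peaked ahead of arntl1 and clocka.

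npas2, a paralog of clock whose product can also pair with BMAL, had a wave like that of the clock copies. Its fitted amplitude was 1.37 (log2) with a peak at Zt 10.2 and an edgeR adjusted p of 0.0012. It measured 0.272 to 17.7 CPM over the 24 libraries (median 3.74 CPM), and both of these extremes came from 5 PM of the first collection, the lowest from replicate A. Without replicate A its adjusted p was 3.6e-07. In the first collection alone, replicate A included, it was not called (adjusted p = 0.095).

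**Figure D5:**
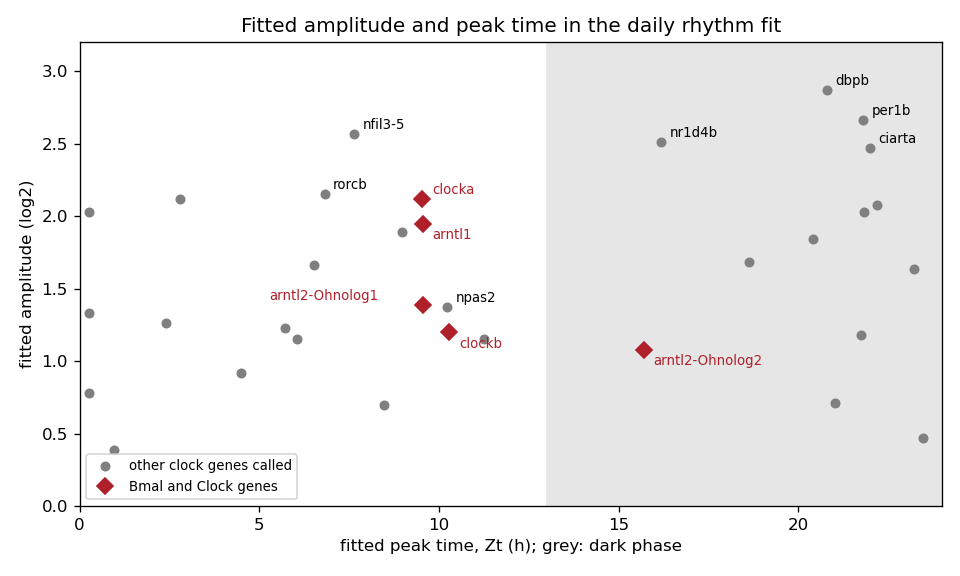
Fitted amplitude (log2, vertical axis) against fitted peak time (Zt in hours, horizontal axis) in the edgeR fit over 24 libraries for the 5 Bmal and Clock genes (diamonds) and the 28 other clock genes called (circles), with the 7 named ones labelled and grey for the dark phase. The rest of the 5 lie near Zt 10, beside npas2, and arntl2-Ohnolog2 lies beside nr1d4b in time.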

How the data were processed

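Skin RNA of 24 fish was sequenced as paired 150-base TruSeq libraries. Per the study's methods, adaptors and low-quality bases were removed, reads were mapped with TopHat2 to the X. maculatus genome v5.0, and featureCounts counted reads per gene of Ensembl release 94. The deposited values are raw read counts per gene, made by the authors with no normalization. Tool versions and options, strand and the treatment of reads shared by copies were not stated, so Ohnologs could share reads.

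CPM, ratios and sums were computed from those counts with the column total as library size. Tests used edgeR 4.0.16 (TMM, filterByExpr, quasi-likelihood F tests, Benjamini-Hochberg over all genes tested, called under 0.05) with a collection term, and DESeq2 1.42.0 as an alternative. Peak times came from least squares cosines on log2(CPM + 0.5), with SE by the delta method. Ratios were tested with 100000 resamples within collections. The rank test compared 8 mean CPM with all 40320 orders, for rises of 3 to 5 of the 8 steps, a range set after a wider one could not call simulated waves, in genes over 1 CPM in at least 2 time points. The tests were checked on simulated data.

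Groups came from the labels' clock times and library years, and Zt from the study's list of times. Members, gene lists and tests were chosen with earlier results of these data known. Named genes were the 5 members, the 3 genes most alike to each, and the 6 clock genes of largest amplitude with npas2. Gene names came from the study's tables, names only. Fish are the replicates. Lengths, coordinates and sequences were not used here. The alternatives were other scalings, filters, models and tests, each collection alone and each library left out.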

Additional observations from a re-analysis of the deposited data

Results flagged for a closer look

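The clocka over clockb ratio at 2 AM held a library far from the others. 2 AM replicate D of the first collection was at 0.743, while the other 3 libraries of that time point were at 0.300 to 0.372, so that the gap to the nearest library took 0.837 of the whole range, above Dixon's critical value for 4 samples. It was the only one of 52 sets of 4 libraries past that value. Chance flags about 1 in 20, so a single flag among 52 is no more than chance alone would give. Each set also pooled 2 libraries of each collection, which Dixon's test does not allow for. The same library had the lowest epidermal marker sum of all (17908 CPM) and 8498 CPM of skeletal muscle markers. Their part in the ratio was not tested. Without this library the wave in the clock ratio was still called.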

How the results depend on the processing

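The daily wave of the 5 genes was called in all 11 other edgeR and DESeq2 fits and with each library left out. The exact rank test alone did not call arntl2-Ohnolog1 (p = 0.036 over all libraries, 0.052 in the first collection) or, over all libraries, arntl2-Ohnolog2 (p = 0.036). With single libraries left out, adjusted p ranged from 6.9e-10 to 8.9e-09 (arntl1), 4.2e-07 to 3.3e-06 (arntl2-Ohnolog1), 1.3e-06 to 2.3e-05 (arntl2-Ohnolog2), 7.2e-08 to 1.0e-06 (clocka) and 1.8e-09 to 3.4e-08 (clockb). The ratio waves gave p of 1e-05 to 2e-05 (Ohnologs) and 0.00032 to 0.0019 (clock copies).

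The count of all genes with a wave (3000) was 288 in the first collection, 7042 in the second, 1629 without a collection term, 4546 with DESeq2, 1464 with 12-h terms, 6803 without both 5 PM libraries and 2099 to 5063 with 1 library left out, the highest without 5 PM replicate A. The dusk against dawn count (2297) was 298 and 6450 in each collection alone, 488 without a collection term, 1302 with all 24 libraries fitted, 4132 with DESeq2 and 629 to 3062 with 1 library left out, a shift of over 1.5 times for each library but 8 AM replicate D and 8 PM replicate C of the first collection. The replicate block on library letters gave 2836 genes with a wave and 611 for dusk against dawn, where all 5 genes stayed called. Letters paired no samples by the labels: their deviations correlated over 0.1 in 8 of 28 pairs for A and B and 4 of 6 for C and D. The dusk change of arntl2-Ohnolog2 was 1.20, not called, without a collection term.

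The count of genes whose wave differed between collections (18) was 90 with RLE, 1558 with DESeq2 and, moved by over 1.5 times by each library, 0 to 1628 with 1 left out, 986 and 1628 without 2 AM replicate C or D of the first collection. For arntl2-Ohnolog1 the adjusted p was 0.047 with RLE, 7.4e-06 with DESeq2 and 0.010 to 0.196 with 1 library left out. For clocka it was 0.00017 with DESeq2 and 0.014 to 0.207. The level difference of arntl1 ranged from -0.41 to -0.20, called without 8 AM replicate A of the second collection. Levels of the other 4 genes kept their side of the threshold, and no difference between groups changed sign.

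With the cosine fitted on the CPM scale, arntl2-Ohnolog2 peaked 5.49 h after arntl2-Ohnolog1 and 5.37 h after arntl1. arntl1 peaked 0.38 h after clocka in the first collection and 0.57 h before it (-0.57) in the second, and clockb 1.51 h after and 0.72 h before (-0.72). Sums per kb were not run, since no lengths were at hand. The causes were not tested. With 2 fish a time point and collection, SDs rest on 2 values.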
